A study of Mus musculus with 7 samples.

Results

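The mitochondrial carrier family was followed in RNA from the gastrocnemius, the fast calf muscle, of mice. The members were the rows of the gene count table named Slc25a with a number, together with the uncoupling protein genes Ucp2 and Ucp3. Slc25a11, Slc25a12, Slc25a13 and Slc25a20 were left out by the rule, and 43 of the 21487 rows of the table were members. Of these, 37 passed the filter on low counts and were tested. The members were chosen with earlier results of these data known, Slc25a25 and Slc25a34 by name, so their moves are a description of these libraries.

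Mitochondrial carriers are small proteins of the inner mitochondrial membrane that exchange nucleotides, phosphate, keto acids, amino acids and cofactors between the matrix and the cytosol. They are made on cytosolic ribosomes and inserted into the inner membrane by the TIM22 translocase. In working muscle the ADP/ATP carrier and the phosphate carrier feed ATP synthase and bring its product out to the myofibrils, and uncoupling proteins are relatives that can let protons back into the matrix.

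Both groups had been immobilized to induce muscle atrophy. The 4 knockout libraries came from mice with Park7, the gene of the redox-sensitive protein DJ-1, deleted in skeletal muscle, and the 3 control libraries from flox mice that the labels also call WT. The sources used here name neither the Cre line nor the exons deleted, the age or the number of animals, and every library came from an immobilized mouse. Nothing in the labels says that libraries are separate animals, so p-values measure the spread between these samples, which may be technical.

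The libraries held 24458343 to 26389010 counts. Levels are in counts-per-million units (CPM) on library sizes scaled by the trimmed mean of M values. Park7 read 229 to 266 CPM in the controls and 34.7 to 41.5 CPM in the knockouts, and the muscle fibre markers Myh4, Ckm and Acta1 each read 11384 CPM or more in every library. The first principal component of log2 CPM (45.3% of the variance) set all knockouts apart from all controls, and the second (16.4%) set knockout 2 apart from the others. Results that rest on knockout 2 are given with and without it. In whole muscle, fewer cells of a type and less RNA per cell cannot be told apart.

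Of the 37 carriers tested, 10 changed between the groups, 8 downward and 2 upward, at an adjusted p under 0.05 in edgeR's quasi-likelihood test. These are 21.6% lower and 5.41% higher, where among all 13409 genes tested 14.9% were called, 8.23% lower and 6.67% higher. With upper quartile scaling the split over all genes moved from 895 higher and 1103 lower to 644 higher and 1295 lower, and the members' calls stayed at 2 and 8. The carriers that fell were Slc25a4, Slc25a3, Slc25a23, Slc25a42, Slc25a10, Slc25a22, Slc25a34 and Ucp2, and those that rose were Slc25a25 and Slc25a44. The median log2 fold change over the 37 members was -0.01, against 0.01 over all genes tested, and 19 members were below 0 and 18 above. The knockout libraries lay entirely above the controls for 3 members and entirely below for 9, where 14.0% and 14.8% of all genes tested did so and 28.8% were separate in either direction. The number that fell was 4 without control 1, 2 without control 2, 4 without control 3 and 5 without knockout 1, in fits with fewer samples, and 6 without any 1 of the other knockouts. The number that rose was 1 without control 1, control 2, knockout 3 or knockout 4, and 3 without knockout 2.

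**Figure D1:**
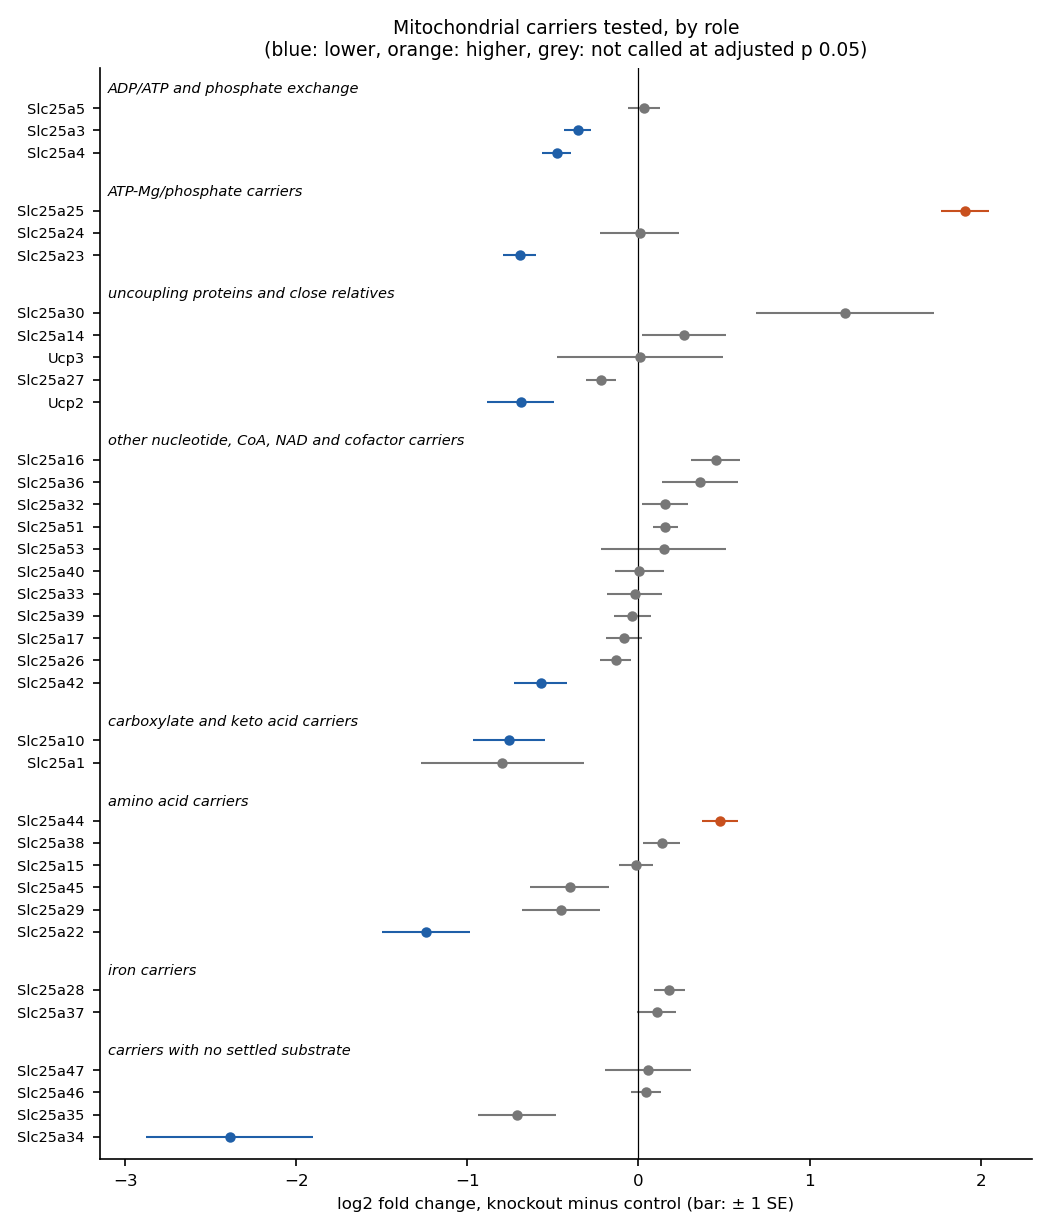
Log2 fold change (horizontal axis, knockout minus control, 3 control and 4 knockout libraries) of the carriers tested, 1 of them not shown, grouped by role, with bars of 1 standard error. Slc25a25 stands at 1.91 and Slc25a34 at -2.39, at opposite ends, and the carriers in grey did not pass the test.

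The ADP/ATP carrier of muscle and the phosphate carrier, which together supply ATP synthase, both fell. Slc25a4 (ANT1), the ADP/ATP exchanger of heart and skeletal muscle, read 2244, 2326 and 2285 CPM in the controls and 1585, 1694, 1601 and 1682 CPM in the knockouts. The groups did not overlap, and the 4 knockouts lay close together. The knockout level was 0.718 times the control level, a log2 fold change of -0.48 with an SE of 0.0858 (adjusted p = 0.0103), and the call held without any 1 library (adjusted p = 0.0164 to 0.0416). Slc25a3, which carries inorganic phosphate into the matrix, read 808, 836 and 743 CPM in the controls and 626, 616, 599 and 649 CPM in the knockouts, again without overlap. Its log2 fold change was -0.35 with an SE of 0.0786 (adjusted p = 0.0212). That call ended without control 1 (adjusted p = 0.0725), control 2 (0.0707) or knockout 3 (0.0580), while the log2 fold change stayed between -0.40 and -0.32.

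The general ADP/ATP carrier was not called. Slc25a5 (ANT2), the isoform of most other tissues, read 25.3, 29.6 and 25.8 CPM in the controls and 26.4, 30.3, 25.9 and 27.8 CPM in the knockouts, with overlapping groups. Its log2 fold change was 0.03 with an SE of 0.0930 (adjusted p = 0.832), and its sign turned to -0.01 with upper quartile scaling. Slc25a4 made up 98.9%, 98.7% and 98.9% of the reads of this pair in the controls and 98.4%, 98.2%, 98.4% and 98.4% in the knockouts. The share fell by 0.4885 percentage points (exact permutation test, 2-sided, p = 0.0286, the smallest that 35 splits can give). Slc25a31 (ANT4), the isoform of male germ cells, had 2 counts in knockout 3 and 0 in every other library.

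Slc25a4 and Slc25a3 held most of the reads of the 43 members. Summed over all 43 members, carrier RNA stood at 3885 ± 120 CPM in the 3 control libraries and at 3119 ± 161 CPM in the 4 knockout libraries (mean ± SD). Slc25a4 held 58.8% ± 0.902 of the members' reads in the controls and 52.6% ± 1.58 in the knockouts, and Slc25a3 held 20.5% ± 0.977 and 19.995% ± 1.15. Without this pair the other members summed to 747, 860 and 806 CPM in the controls and 815, 1042, 796 and 773 CPM in the knockouts, where knockout 2 was the highest. These sums and shares leave out the carriers outside the rule. In the controls Slc25a12 stood at 468 ± 19.1 CPM, Slc25a11 at 221 ± 9.87, Slc25a20 at 93.0 ± 10.5 and Slc25a13 at 0.756 ± 0.188.

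Per kilobase of transcript, the order of the members was steep at the top and flat below. No level per kb is given for the carriers left out by the rule, so the order holds among the members only. In the controls Slc25a4 stood at 1187 ± 21.3 CPM per kb, Slc25a3 at 493 ± 29.5 and Ucp3 at 72.0 ± 19.9 CPM per kb (SD, n = 3). These levels lie further apart than their spread. Slc25a5 followed at 21.7 ± 1.86 CPM per kb, then the iron carrier Slc25a28 at 18.4 ± 1.78 and the NAD carrier Slc25a51 at 17.3 ± 0.549, and each of these neighbours overlaps the next within 1 SD. The other tested carriers ran down to 0.163 ± 0.0295 CPM per kb for Slc25a53, a close relative of Slc25a51 of unsettled function. In the knockouts Slc25a25 moved from 5.80 ± 0.186 to 21.8 ± 3.88 CPM per kb, next to Slc25a5 at 22.2 ± 1.59, and Slc25a34 moved from 7.74 ± 2.89 to 1.47 ± 0.895.

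**Figure D2:**
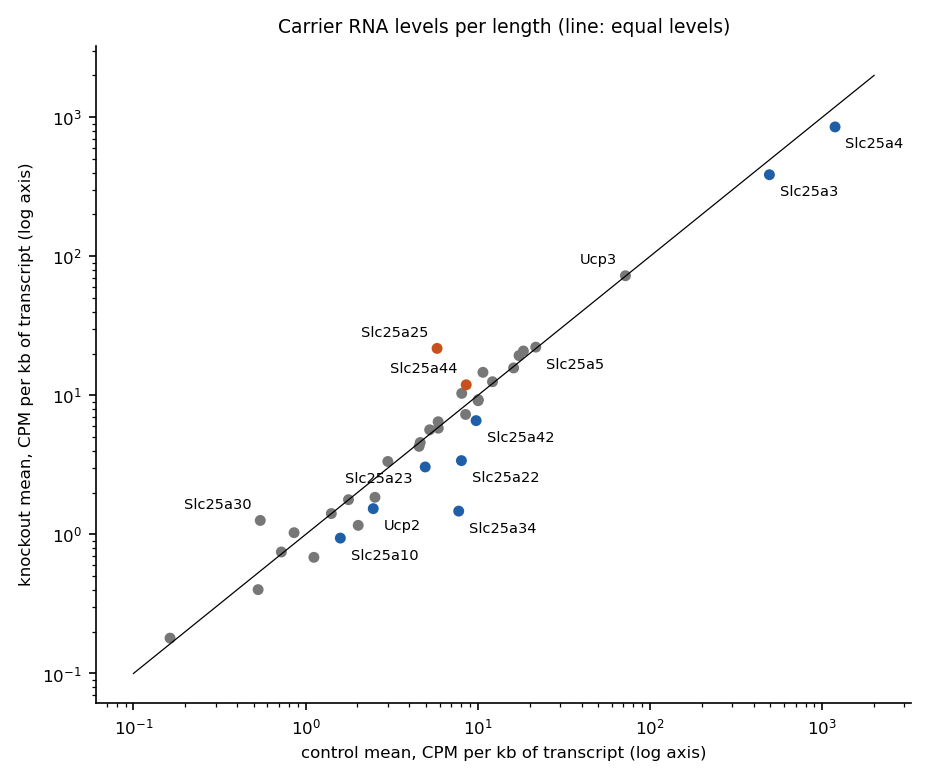
Mean RNA level of each tested carrier in controls (horizontal) and knockouts (vertical), in CPM per kb of the longest coding transcript, both on log axes, with a line of equal levels. Slc25a4, Slc25a3 and Ucp3 stand far above the other members, Slc25a25 lies above the line and Slc25a34 below it.

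Within the calcium-regulated ATP-Mg/phosphate carriers, close relatives moved in opposite directions. These carriers exchange ATP-Mg for phosphate and thereby set the adenine nucleotide content of the matrix, and they bind calcium through an EF-hand domain. Slc25a25 (SCaMC-2), which has been tied to ATP use and calcium cycling in mouse muscle, read 19.9, 21.2 and 20.2 CPM in the controls and 63.3, 67.4, 92.2 and 84.2 CPM in the knockouts. The groups were far apart and the controls close together, with means of 20.5 ± 0.656 CPM (SD, n = 3) and 76.8 ± 13.7 CPM (SD, n = 4). The level was 3.75 times higher, a log2 fold change of 1.91 with an SE of 0.140 (adjusted p = 0.00103). The call held without any 1 library (adjusted p = 0.000738 to 0.00938).

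Slc25a23 (SCaMC-3), the relative best known from liver and brain, fell. It read 16.2, 18.2 and 15.5 CPM in the controls and 10.05, 9.89, 10.7 and 10.5 CPM in the knockouts. Its log2 fold change was -0.70 with an SE of 0.0945 (adjusted p = 0.00486), a call that held without any 1 library (adjusted p = 0.00746 to 0.0198). Slc25a24 (SCaMC-1), the form of proliferating cells, read 4.50, 5.02 and 4.98 CPM in the controls and 7.26, 3.84, 4.42 and 3.87 CPM in the knockouts, and was not called (adjusted p = 0.988, log2 fold change 0.01 with an SE of 0.229). Per kilobase, Slc25a25 stood at 1.17, 1.11 and 1.24 times the level of Slc25a23 in the controls and at 6.002, 6.49, 8.23 and 7.66 times in the knockouts. The balance of the pair thus shifted towards Slc25a25 in every knockout library. The 3 genes together summed to 40.6 to 44.4 CPM in the controls and 80.6 to 107 CPM in the knockouts.

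Some reads of Slc25a25 were shared with a neighbour. Slc25a25 spans bases 32414487 to 32451445 of chromosome 2 (GRCm38, minus strand) and overlaps Naif1 on the other strand. Its count was not whole in 5 libraries, and in all 7 the counts of the pair add to a whole number within 0.015. Naif1 had only 34.26 to 50.01 counts a library, against 496 to 2316.23 for Slc25a25, and its log2 fold change was 0.05. The strand of the protocol is not given in the sources used here, so reads of the overlap cannot be assigned with certainty.

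Slc25a34, a carrier without a settled substrate whose closest yeast relative moves oxaloacetate, had the lowest fold change of the family. It read 12.8, 28.3 and 20.9 CPM in the controls and 4.90, 6.43, 0.797 and 3.59 CPM in the knockouts. The groups did not overlap, but both were wide, and knockout 3 was far lower than the other knockouts with 20 counts. The means were 20.7 ± 7.72 CPM (SD, n = 3) and 3.93 ± 2.39 CPM (SD, n = 4), which is a ratio of 0.190. Its log2 fold change was -2.39 with an SE of 0.487 (adjusted p = 0.0158), and the call ended without control 2 (log2 fold change -2.10, adjusted p = 0.0526). Slc25a35, its nearest relative in the family, read 4.22, 4.52 and 3.48 CPM in the controls and 1.78, 2.25, 3.54 and 2.42 CPM in the knockouts, overlapping only through knockout 3. It did not pass (adjusted p = 0.0670, log2 fold change -0.71 with an SE of 0.227), although DESeq2 called it (adjusted p = 0.0461) and so did the fit without knockout 3 (adjusted p = 0.0315).

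The start regions of Slc25a25 and Slc25a34 are shown because these genes stand at opposite ends of the family's fold changes. RefSeq windows on GRCm38.p6 span 250 bases before to 50 after each annotated start, and are printed 5′ to 3′ on the gene's strand, which is minus for both. Capitals mark motif matches. Slc25a25 has 3 annotated starts, at chr2:32451421-32451720 (start 1), chr2:32431102-32431401 (start 2) and chr2:32424017-32424316 (start 3), and Slc25a34 has 1, at chr4:141623785-141624084. Which start the reads come from cannot be told from counts per gene.
Slc25a25 start 1: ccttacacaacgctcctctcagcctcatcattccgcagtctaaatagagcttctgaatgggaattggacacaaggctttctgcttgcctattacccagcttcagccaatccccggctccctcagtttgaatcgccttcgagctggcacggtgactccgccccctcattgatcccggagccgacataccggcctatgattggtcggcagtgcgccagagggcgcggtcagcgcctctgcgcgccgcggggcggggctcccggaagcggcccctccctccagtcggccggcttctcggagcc
Slc25a25 start 2: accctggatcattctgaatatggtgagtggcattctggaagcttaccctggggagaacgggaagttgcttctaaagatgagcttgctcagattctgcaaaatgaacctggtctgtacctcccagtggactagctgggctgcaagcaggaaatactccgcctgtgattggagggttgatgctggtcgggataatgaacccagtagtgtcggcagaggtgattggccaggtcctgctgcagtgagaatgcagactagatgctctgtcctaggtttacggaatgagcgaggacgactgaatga
Slc25a25 start 3: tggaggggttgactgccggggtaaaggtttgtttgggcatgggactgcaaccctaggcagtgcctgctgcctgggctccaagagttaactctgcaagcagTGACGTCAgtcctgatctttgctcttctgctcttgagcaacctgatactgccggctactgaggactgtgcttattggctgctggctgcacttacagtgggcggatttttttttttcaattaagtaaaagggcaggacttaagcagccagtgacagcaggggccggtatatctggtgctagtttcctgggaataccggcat
Slc25a34: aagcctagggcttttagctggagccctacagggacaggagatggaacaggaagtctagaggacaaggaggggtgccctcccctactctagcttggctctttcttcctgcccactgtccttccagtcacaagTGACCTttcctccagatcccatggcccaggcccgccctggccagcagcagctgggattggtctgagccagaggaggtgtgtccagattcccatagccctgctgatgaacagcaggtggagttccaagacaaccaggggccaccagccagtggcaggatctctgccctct

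The windows were searched on both strands for TGACGTCA (the cyclic AMP response element), CACGTG (E-box), AGGTCA (the binding site of a single nuclear receptor), the MEF2 motif (CTA, any 4 bases, TAG) and the NRF1 motif (GCGCA, any base, GCGC). Slc25a25 start 3 holds a TGACGTCA that begins 150 bases before the start, a motif found in 1.79% of the 32851 windows of all genes. The Slc25a34 window holds AGGTCA, on the opposite strand, 119 bases before its start, a motif found in 16.3% of all windows. The other starts of Slc25a25 hold none of the 5 motifs. RefSeq windows matched 33 of the 43 members. In the 14 windows of the 9 called members that matched, TGACGTCA occurred in 1 window, CACGTG in 0, AGGTCA in 1, the MEF2 motif in 2 (Slc25a10 and Slc25a22) and the NRF1 motif in 1 (Slc25a3). Over the 43 windows of all 33 matched members, TGACGTCA occurred in 2, the second in Slc25a36, which was not called. AGGTCA occurred in 5 of these windows, in Slc25a34 and in the uncalled Slc25a39, Slc25a45, Slc25a47 and Ucp3. CACGTG occurred in 7, the MEF2 motif in 2 and the NRF1 motif in 2. In the windows of all genes CACGTG occurred in 7.15%, the MEF2 motif in 3.69% and the NRF1 motif in 4.60%. A match describes these letters and is not evidence of binding.

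**Figure D3:**
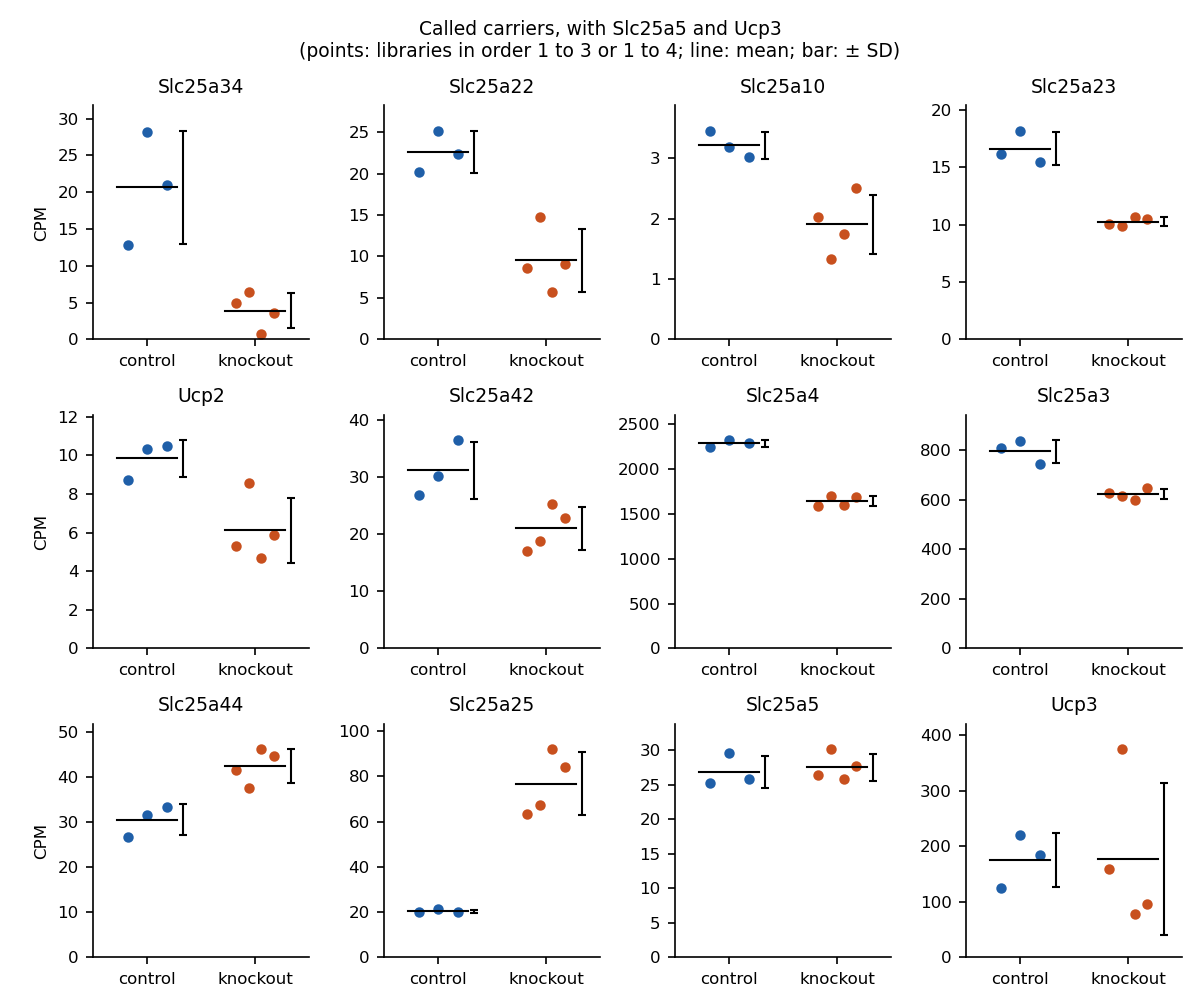
CPM (vertical axes, each from 0) of the 10 called carriers and of Slc25a5 and Ucp3 in each control (blue) and knockout (orange) library, with means and SDs. The groups are separate for the called carriers, while Slc25a5 and Ucp3 overlap and knockout 2 stands at 376 CPM for Ucp3.

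Of the uncoupling proteins, Ucp2 fell, and Ucp3 was not called and was uneven between knockouts. Ucp3, the uncoupling protein of skeletal muscle that responds to fatty acids and fasting, read 124, 220 and 184 CPM in the controls and 159, 376, 78.6 and 96.1 CPM in the knockouts. Knockout 2 was above every control, knockout 1 lay among them and knockouts 3 and 4 were below. The means were 176 ± 48.6 CPM (SD, n = 3) and 178 ± 137 CPM (SD, n = 4), and the log2 fold change was 0.01 with an SE of 0.485 (adjusted p = 0.990). Without knockout 2 it was -0.66 (adjusted p = 0.136).

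Ucp2, which is found in many tissues and strongly in immune cells, read 8.72, 10.3 and 10.5 CPM in the controls and 5.30, 8.56, 4.70 and 5.88 CPM in the knockouts. The groups were separate only by the gap between control 1 and knockout 2. Its log2 fold change was -0.69 with an SE of 0.196 (adjusted p = 0.0463). The call was lost without any library other than knockout 2 (adjusted p = 0.0778 to 0.132), and without knockout 2 the log2 fold change was -0.90 (adjusted p = 0.00748). It was also lost with a term for the replicate number (adjusted p = 0.0714) and without a filter on low counts (adjusted p = 0.0517). The summed level of 9 macrophage markers was 51.8 to 84.4 CPM in the controls and 35.1 to 55.1 CPM in the knockouts, and none was at 0 in any library. Of the 8 tested, 3 fell (Cd68, Csf1r and Lyz2), where 8.23% of all genes tested fell. The other 5 were not called, among them Mrc1 and Cd163 with log2 fold changes of 0.01 and -0.03. The part of macrophages in the level of Ucp2 was not tested.

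Ucp3 and Ucp2 are neighbours on the plus strand of chromosome 7, Ucp3 at 100472990 to 100486432 and Ucp2 at 100493337 to 100502020 (GRCm38). Per kilobase, Ucp3 stood at 23.2, 34.7 and 28.6 times the level of Ucp2 in the controls and at 49.0, 71.6, 27.3 and 26.6 times in the knockouts. The ratio was high in knockouts 1 and 2 and within the control range in knockouts 3 and 4. Ucp1, the uncoupling protein of brown fat, had counts in 1 library only, at 0.0398 CPM in knockout 3.

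The less studied relatives of the uncoupling proteins were not called. Slc25a30 (KMCP1) read 2.25, 1.88 and 1.74 CPM in the controls and 2.18, 9.44, 4.34 and 2.14 CPM in the knockouts, again highest in knockout 2. Its log2 fold change of 1.21 did not pass in edgeR (SE 0.520, adjusted p = 0.147) and was at the threshold in DESeq2 (adjusted p = 0.0497). Without knockout 2 it was 0.56 in edgeR (adjusted p = 0.234). Slc25a27 (UCP4), a form first described in brain, read 23.3, 24.3 and 26.1 CPM against 19.5, 21.8, 20.6 and 22.6 CPM, without overlap, and did not pass (adjusted p = 0.123, log2 fold change -0.22 with an SE of 0.0871). Slc25a14 (UCP5) stood at 1.55 ± 0.259 and 1.86 ± 0.488 CPM (adjusted p = 0.490).

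Genes of fat use that are known targets of the fatty acid receptors PPAR are given beside Ucp3. Of 14 such genes, 8 fell and 0 rose, with a median log2 fold change of -0.82, against the 8.23% of all genes that fell. Lipoprotein lipase, Lpl, had the largest fall among them (log2 fold change -2.08, adjusted p = 0.00644). Hadhb and Acadm, enzymes of fatty acid oxidation, stood at -0.79 and -0.91 (adjusted p = 0.00306 and 0.00452). Pdk4, the kinase that blocks pyruvate oxidation, read 1401, 1384 and 1067 CPM in the controls and 1648, 1932, 659 and 1085 CPM in the knockouts and was not called (adjusted p = 0.928). Acot2, a mitochondrial thioesterase, read 13.0, 21.3 and 17.7 CPM and 14.8, 24.0, 7.61 and 8.50 CPM (adjusted p = 0.568). Ucp3, Pdk4 and Acot2 were all highest in knockout 2 and lowest in knockout 3, whereas Lpl was 201 CPM in knockout 2, close to knockouts 1 and 4.

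**Figure D4:**
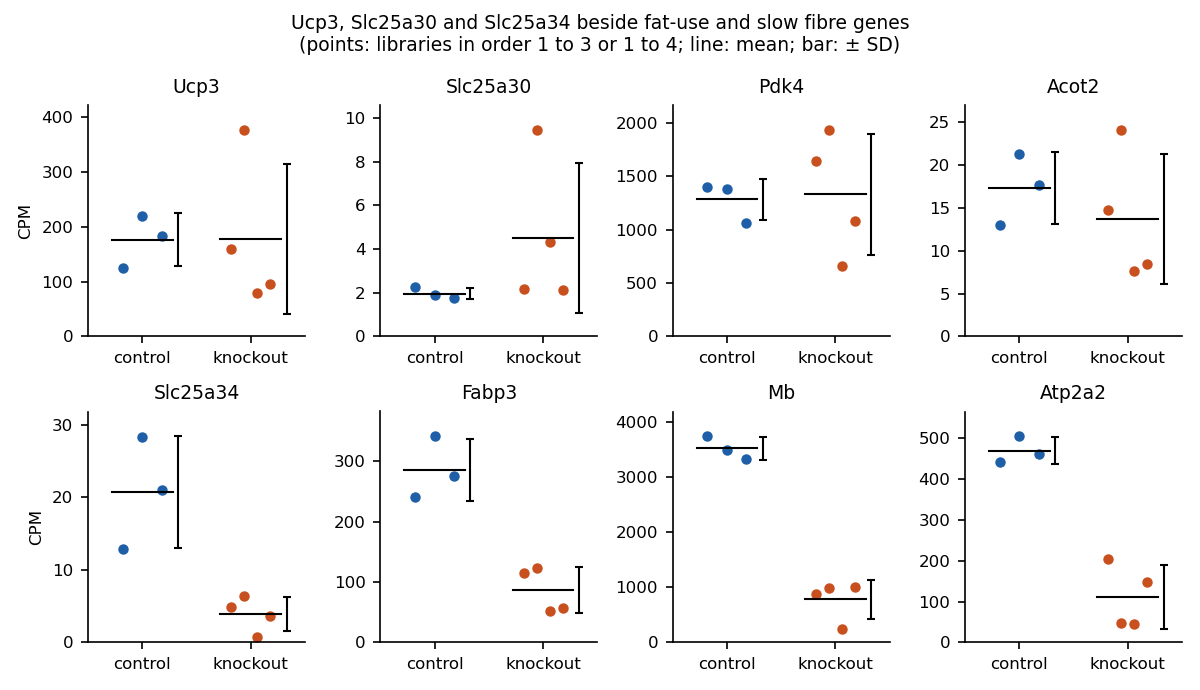
CPM (vertical axes, each from 0) of 3 carriers and 5 genes of fat use or slow fibres in each control (blue) and knockout (orange) library, with means and SDs. Ucp3, Slc25a30, Pdk4 and Acot2 are highest in knockout 2. Ucp3, Pdk4, Acot2, Slc25a34, Fabp3, Mb and Atp2a2 are lowest in knockout 3, Atp2a2 only just below knockout 2. Among the knockouts alone, Slc25a34 and Fabp3 are also highest in knockout 2.

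The summed level of slow and oxidative fibre markers was lower in every knockout than in any control, and the carriers that fell differed in which knockout was lowest. The 9 markers summed to 5397 to 5619 CPM in the controls and 1588, 1123, 329 and 1724 CPM in knockouts 1 to 4. Most of each sum was Mb, at 3747, 3500 and 3335 CPM in the controls and 875, 996, 253 and 1002 CPM in the knockouts. Myh7, the slow myosin heavy chain, read 646, 762 and 762 CPM and 238, 9.29, 5.78 and 288 CPM. It was thus far lower in knockouts 2 and 3 than in knockouts 1 and 4, and was not called (adjusted p = 0.165). Of the 9 markers, 4 fell (Mb, Atp2a2, Tpm3 and Myl2) and 0 rose, where 8.23% of all genes tested fell. Their median log2 fold change over all 9 was -2.36, and none was at 0 in any library. Of the 8 carriers that fell, Slc25a34, Slc25a22, Ucp2 and Slc25a3 were lowest in knockout 3, the lowest library for these markers. Slc25a23 and Slc25a42 were instead highest among the knockouts in knockout 3, Slc25a10 was lowest in knockout 2 and Slc25a4 in knockout 1. Slc25a34, Slc25a22 and Ucp2 were highest among the knockouts in knockout 2, the second lowest library for the markers. How often genes that fell were lowest in knockout 3 was not counted over all genes. Knockout 3 also stood furthest from the controls on the first principal component. Of the 7 muscle fibre markers 1 rose and 0 fell in edgeR, where 6.67% of all genes rose, and DESeq2 called 3 higher. The one that rose was Myh4, the fastest myosin heavy chain, at 40535, 41252 and 57140 CPM in the controls and 73365, 96168, 129514 and 100369 CPM in the knockouts (log2 fold change 1.11, adjusted p = 0.0380). The part of the fibre mix in these results was not tested. Sums of 6 adipocyte markers ran from 29.6 to 68.5 CPM in the controls and from 13.8 to 32.0 CPM in the knockouts. Those of 5 fibroblast markers ran from 260 to 540 and from 186 to 282 CPM. Those of 5 endothelial markers ran from 192 to 230 and from 163 to 179 CPM. Of the fibroblast markers 3 fell (Col1a1, Col3a1 and Lum), while Dcn and Pdgfra were not called. Of 5 tested adipocyte markers 1 fell (Retn), and of the endothelial markers 0 fell, where 8.23% of all genes tested fell.

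Of the carriers of cofactors, 1 of the 12 tested fell (8.33%) and none rose, where 8.23% of all genes tested fell. Slc25a42, which carries coenzyme A into the matrix, read 26.8, 30.2 and 36.6 CPM in the controls and 17.1, 18.8, 25.3 and 22.9 CPM in the knockouts. The groups were separate by the gap between control 1 and knockout 3, and the log2 fold change was -0.57 with an SE of 0.155 (adjusted p = 0.0400). The call held only without knockout 3 among the fits with 1 library left out (adjusted p = 0.0386, against 0.0541 to 0.142 without each other library), and it was lost without a filter on low counts (adjusted p = 0.0511). Slc25a16, also tied to coenzyme A, read 32.2, 31.7 and 37.1 CPM and 46.7, 35.4, 55.7 and 46.3 CPM, and did not pass in edgeR (adjusted p = 0.0643, log2 fold change 0.45 with an SE of 0.142). DESeq2 called it (adjusted p = 0.0290), and so did the fit without knockout 2 (adjusted p = 0.0137).

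Slc25a51, the carrier that brings NAD into mitochondria, read 79.6, 76.4 and 74.9 CPM in the controls and 83.9, 80.3, 86.9 and 92.1 CPM in the knockouts. The knockouts were all higher, by a margin too small to pass (adjusted p = 0.179, log2 fold change 0.16 with an SE of 0.0735). The glutathione carrier Slc25a39 stood at 27.2 ± 2.42 and 26.5 ± 3.07 CPM (adjusted p = 0.858), and its relative Slc25a40 at 4.94 ± 0.320 and 4.95 ± 0.705 CPM (adjusted p = 0.987). The pyrimidine nucleotide carriers Slc25a33 and Slc25a36 had log2 fold changes of -0.02 and 0.36 (adjusted p = 0.940 and 0.305), and Slc25a36 was uneven in both groups, at 34.0 to 58.2 CPM in the controls and 38.0 to 62.4 CPM in the knockouts. The S-adenosylmethionine carrier Slc25a26, the folate and FAD carrier Slc25a32, the peroxisomal carrier Slc25a17 and Slc25a53 had log2 fold changes of -0.13, 0.16, -0.08 and 0.15, none of them called (adjusted p = 0.341 to 0.816).

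Among the carriers of amino acids, the glutamate carrier fell and the carrier of branched-chain amino acids rose. Slc25a22, which takes glutamate into the matrix, read 20.2, 25.2 and 22.3 CPM in the controls and 8.63, 14.7, 5.70 and 9.11 CPM in the knockouts. All knockouts were below the controls, with knockout 2 the nearest to them. The log2 fold change was -1.24 with an SE of 0.257 (adjusted p = 0.0165), but leaving out control 2 (adjusted p = 0.0544) or control 3 (0.0509) ended the call. Slc25a44, which imports valine, leucine and isoleucine for their breakdown, read 26.8, 31.7 and 33.3 CPM in the controls and 41.6, 37.7, 46.4 and 44.7 CPM in the knockouts, without overlap. It had a log2 fold change of 0.48 with an SE of 0.106 (adjusted p = 0.0211). The call ended without control 1 (adjusted p = 0.0789), control 2 (0.0518), knockout 3 (0.0580) or knockout 4 (0.0506), with log2 fold changes of 0.38 to 0.54 over all fits with 1 library left out.

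The ornithine carrier Slc25a15 stood at 15.9 ± 0.599 and 15.7 ± 1.41 CPM, with a log2 fold change of -0.01 with an SE of 0.0987 (adjusted p = 0.936). The glycine carrier Slc25a38, which serves heme synthesis, and the basic amino acid carrier Slc25a29 had log2 fold changes of 0.13 and -0.45 (adjusted p = 0.437 and 0.209), and Slc25a45 had -0.40 (adjusted p = 0.269). Slc25a2 (2 to 7 counts a library), Slc25a18 (1 to 3) and Slc25a48 (0 to 2) were too low to be tested.

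Of the carriers of carboxylates, Slc25a10 fell and Slc25a1 rested on 1 control. Slc25a10, the dicarboxylate carrier that exchanges malate and succinate for phosphate, read 3.46, 3.18 and 3.01 CPM in the controls and 2.03, 1.33, 1.75 and 2.50 CPM in the knockouts, from 35 to 86 counts. The log2 fold change was -0.76 with an SE of 0.208 (adjusted p = 0.0419), and the call held without knockout 4 (adjusted p = 0.0326) and failed without each of the other libraries (adjusted p = 0.0537 to 0.126). It also failed without a filter on low counts (adjusted p = 0.0504). Slc25a1, the citrate carrier that feeds fatty acid synthesis, read 6.59, 1.84 and 1.66 CPM in the controls and 1.41, 1.598, 2.11 and 2.62 CPM in the knockouts. Control 1 alone was high, and the log2 fold change of -0.80 with an SE of 0.477 (adjusted p = 0.285) turned to 0.13 without it. The oxodicarboxylate carrier Slc25a21 had 0 to 2 counts a library.

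The iron carriers of mitochondria, mitoferrin 1 (Slc25a37) and mitoferrin 2 (Slc25a28), were not called in edgeR or DESeq2, nor at an unadjusted p under 0.05. Slc25a37 stood at 21.9 ± 2.35 and 23.6 ± 2.69 CPM (log2 fold change 0.11, adjusted p = 0.558) and Slc25a28 at 28.2 ± 2.73 and 32.0 ± 1.50 CPM (log2 fold change 0.18, adjusted p = 0.200). Counts of both were not whole in any library, as happens where reads are divided between genes. Slc25a37 is also strongly expressed in red blood cell precursors, and 3 of 5 tested erythroid markers fell, where 8.23% of all genes tested fell. These were the globin genes Hbb-bs, Hbb-bt and Hba-a1, and the groups of Hbb-bs and Hbb-bt overlapped. DESeq2 called 2 lower, Hba-a1 and Hbb-bs. Sums over 6 erythroid markers were 376, 224 and 809 CPM in the controls and 235, 205, 101 and 154 CPM in the knockouts. Control 3 was thus far above the other controls, and no marker was at 0 in any library. Slc25a46, which sits in the outer membrane and acts in mitochondrial dynamics, stood at 53.2 ± 4.40 and 54.8 ± 3.62 CPM (adjusted p = 0.769). Slc25a47, a carrier best known from liver, stood at 1.37 ± 0.0473 and 1.41 ± 0.410 CPM (adjusted p = 0.902), and Slc25a43 had 0 to 2 counts a library.

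Related carriers and other inner membrane transporters are given beside the family, where 8.23% of all genes tested fell and 6.67% rose. Of 6 tested relatives outside the member rule, 4 fell, among them the oxoglutarate carrier Slc25a11 and the carnitine carrier Slc25a20, with log2 fold changes of -0.70 and -0.91 (adjusted p = 0.00298 and 0.00652), while Slc25a12, the aspartate-glutamate carrier of muscle, did not pass (log2 fold change -0.17, adjusted p = 0.210). Of 12 transporters of other families 2 fell, the pyruvate carrier subunit Mpc2 by 0.56 (adjusted p = 0.00653) and the ATP-binding cassette protein Abcb8 by 0.40 (adjusted p = 0.0270), with a median of -0.23. Mpc1, the partner of Mpc2, had a log2 fold change of -0.20 (adjusted p = 0.144). Of the 12 tested genes of the route that inserts carriers into the membrane, 0 passed in edgeR, 2 were lower at an unadjusted p under 0.05, and DESeq2 called 1, Tomm20, as lower. Their median log2 fold change was -0.13. Among them the receptor Tomm70a stood at 0.15 and the translocase Timm22 at -0.15 (adjusted p = 0.249 and 0.276).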

How the data were processed

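RNA of 7 gastrocnemius libraries was read as 150 bp paired ends on a BGISEQ-500, per the labels' protocols. The authors aligned reads to mm10 with STAR 2.7.10a, quantified with RSEM 1.2.28 and tested with DESeq2 (given as version 1.3.40), per the submitters' processing notes. The deposited table holds RSEM expected counts per gene symbol for 21487 rows, here rounded to whole numbers. Of these rows, 24 had symbols turned into dates and are not named. They entered the filter like all other rows, and how many of them were tested was not counted. The sources used here give neither the transcript annotation nor the strand. The test was edgeR 4.0.16's quasi-likelihood F test under R 4.3.3, after filterByExpr and TMM scaling, with Benjamini-Hochberg adjustment over 13409 genes and calls at 0.05. On simulated counts with 200 changed genes it recovered 42% of those changed 1.5-fold, 84% at 2-fold and 100% at 4-fold. Of its calls there, 6.29% were unchanged genes. The simulation held fewer changed genes than the 1998 called here. A carrier that was not called can still differ between the groups. Each SE is the size of the log2 fold change divided by the root of its F value. Levels per kb use the longest coding transcript of GENCODE M21 (GRCm38), not the isoform mix. Alternatives were DESeq2 1.42.0, RLE and upper quartile scaling, filters of none or a mean of 10 counts, a replicate block and each library left out. The older form of the quasi-likelihood method was added after seeing the data. Members, lists and the naming rule (every member but 1 that is not reported here, with library values for called members and for Slc25a25, Slc25a34, Ucp2, Ucp3, Slc25a3, Slc25a4 and Slc25a5, and up to 6 called genes of each list) were chosen with earlier results of these data known. Library values of other members, and uncalled genes of the lists, were added after their values were seen. Adjusted p-values are from edgeR unless named.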

Additional observations from a re-analysis of the deposited data

Results flagged for a closer look

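In the group of 4 knockout libraries, 1 library stood far from the others in 2 of 38 measures, the 37 tested members and the share of Slc25a4. Chance flags about 1 in 20 groups. Slc25a24 read 7.26 CPM in knockout 1, where the next highest knockout read 4.42 CPM, a gap of 0.831 of the range of the group. Slc25a33 read 13.6 CPM in knockout 4, where the next highest knockout read 10.3 CPM, a gap of 0.848 of the range.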

How the results depend on the processing

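The number of members that rose was 4 with DESeq2 against 2, with 1 to 3 when 1 library was left out, and the number that fell was 5 without a filter against 8 (Slc25a10, Slc25a42 and Ucp2 lost their call), with 2 to 6 when 1 library was left out. Over all genes, 895 rose and 1103 fell, against 644 and 1295 with upper quartile scaling, 577 and 696 under the replicate block, and 258 to 966 and 528 to 1091 with 1 library left out. The median of the members was -0.01, against -0.065 with upper quartile scaling and -0.066 to 0.021 with 1 library left out. Over all genes tested the median was 0.0058, against -0.043 with upper quartile scaling. The cause of these shifts was not tested, other than that fits with 1 library left out have fewer samples. The change in the share of Slc25a4 was -0.534 to -0.454 percentage points with 1 library left out, where the exact test cannot go below 0.0667 or 0.10.

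Slc25a25, Slc25a23 and Slc25a4 were called under all of these alternatives. Members that were not called changed sign. With upper quartile scaling Slc25a24 stood at -0.041, Slc25a40 at -0.044, Slc25a46 at -0.0057, Slc25a5 at -0.014 and Ucp3 at -0.036, while under the replicate block Slc25a39 stood at 0.016 and Ucp3 at -0.015. Over the fits without 1 library, values on the log2 scale spanned from -1.12 to 0.13 for Slc25a1, from -0.056 to 0.042 for Slc25a15, from -0.26 to 0.10 for Slc25a24, from -0.16 to 0.10 for Slc25a33, from -0.11 to 0.021 for Slc25a39, from -0.098 to 0.074 for Slc25a40, from -0.0086 to 0.11 for Slc25a46, from -0.075 to 0.19 for Slc25a47, from -0.014 to 0.11 for Slc25a5, from -0.066 to 0.37 for Slc25a53 and from -0.66 to 0.26 for Ucp3.

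Control and knockout share replicate numbers. Same-numbered libraries deviated together with correlations of 0.0945, 0.134 and 0.0854 over genes, not all above the 0.1 required, so the numbers were not taken to pair samples, although each library of the 3 pairs correlated best with its own number. With the replicate block, in which knockout 4 stands alone, 2 members rose and 7 fell, and Ucp2 lost its call. Counts of at most 7 a library left 6 members untested.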
